A study of Rattus norvegicus with 192 samples.

Results

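Nucleus accumbens core libraries with much transcript of Calcr, the calcitonin receptor, were compared with libraries with little of it. The libraries are polyA RNA of outbred heterogeneous stock rats, 1 rat identifier each, with 192 libraries in the labels and 159 in the deposited table. The labels give no treatment, genotype, sex, age or sequencing run, and no group was assigned by the study. The groups compared here were chosen by measured values, those of Calcr and of the dopamine receptor gene Drd1. Libraries with Drd1 at 100 CPM (expected counts scaled to 1000000 per library) or more were kept, which left 147 of 159, and were ranked by Calcr. The top 36 form the high Calcr group and the bottom 36 the low Calcr group, so that 72 of 159 libraries were compared and 75 lay between them. Of the high Calcr libraries, 23 carry a rat identifier that starts with E21, 11 an all-digit identifier and 2 one that starts with AA1. Of the low Calcr libraries, 11 carry an E21 identifier, 20 an all-digit one and 5 an E21 identifier that the submitters had corrected. All groups share the dissected tissue and the outbred stock, and nothing else is stated of the rats.

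Calcr encodes a receptor that binds calcitonin and, together with a RAMP accessory protein, amylin, a pancreatic hormone released with insulin. In rodents the receptor is abundant in parts of the ventral striatum, where amylin reduces feeding, and the accumbens shell and its medial side are known for more of it than the core. The accumbens consists mostly of medium spiny neurons of the D1 and D2 dopamine receptor types, and its core and shell differ in peptides, receptors and inputs.

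Calcr lies on chromosome 4 of GRCr8, with its start at 32691075 on the minus strand. The promoters of Calcr and of Arhgap36, Dlk1 and Peg10 are given so that the members of the pattern can be seen side by side. Among genes averaging 5 CPM or more, with no locus number or pseudogene symbol, the last 3 had the largest rises. Sequences are those of RefSeq on GRCr8, 250 bases before and 50 after the start, 5′ to 3′ along the gene, with CG dinucleotides in capitals. They span chr4:32691026-32691325 on the minus strand and chrX:133635746-133636045, chr6:134192347-134192646 and chr4:33808776-33809075 on the plus strand. For Dlk1 the start used for the promoter differs from the gene start in the deposited values, 134192491. Its window, and so its CG count, is placed otherwise relative to that gene start than for the other genes printed.
Calcr: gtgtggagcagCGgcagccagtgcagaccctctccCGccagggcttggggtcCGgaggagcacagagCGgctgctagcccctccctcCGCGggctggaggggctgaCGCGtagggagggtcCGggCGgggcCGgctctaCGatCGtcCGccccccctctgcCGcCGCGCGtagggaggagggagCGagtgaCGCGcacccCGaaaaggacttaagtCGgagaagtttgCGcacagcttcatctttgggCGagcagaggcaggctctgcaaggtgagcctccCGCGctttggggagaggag
Arhgap36: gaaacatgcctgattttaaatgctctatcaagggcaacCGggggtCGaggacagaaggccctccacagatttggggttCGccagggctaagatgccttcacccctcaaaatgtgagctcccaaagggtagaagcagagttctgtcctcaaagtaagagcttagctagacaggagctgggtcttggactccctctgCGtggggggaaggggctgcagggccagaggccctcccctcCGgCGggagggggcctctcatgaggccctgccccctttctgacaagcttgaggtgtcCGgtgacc
Dlk1: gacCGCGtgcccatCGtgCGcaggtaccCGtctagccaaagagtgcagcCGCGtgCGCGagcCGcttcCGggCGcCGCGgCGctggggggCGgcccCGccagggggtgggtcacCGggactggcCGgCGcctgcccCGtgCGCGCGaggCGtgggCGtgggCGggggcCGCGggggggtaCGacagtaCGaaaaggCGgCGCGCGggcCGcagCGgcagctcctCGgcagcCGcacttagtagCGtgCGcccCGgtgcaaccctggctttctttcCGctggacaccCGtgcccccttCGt
Peg10: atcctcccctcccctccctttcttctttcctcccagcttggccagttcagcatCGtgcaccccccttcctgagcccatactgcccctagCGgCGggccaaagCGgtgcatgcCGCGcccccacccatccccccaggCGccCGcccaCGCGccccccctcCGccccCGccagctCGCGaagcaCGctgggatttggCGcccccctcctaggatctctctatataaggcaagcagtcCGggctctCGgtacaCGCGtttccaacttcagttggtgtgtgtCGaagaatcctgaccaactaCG
The number of CG dinucleotides was 27 for Calcr, 7 for Arhgap36, 45 for Dlk1 and 22 for Peg10, against a median of 7 over 27457 promoters of 300 bases. Fewer CG were counted in 85% of those promoters than in that of Calcr, in 98.3% for Dlk1, in 77.3% for Peg10 and in 46.5% for Arhgap36. Calcr and Peg10 were alike in this respect, while Dlk1 had more and Arhgap36 fewer.

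Calcr itself ran from 40.25 to 86.83 CPM in the high Calcr libraries, with a mean of 52.5 ± 10.3 (SD, n = 36). In the low Calcr libraries it ran from 2.443 to 18.93 CPM, with a mean of 13.0 ± 4.53 (SD, n = 36). These values made the groups and carry no test. The ranking held no gap at either border, since the lowest high Calcr library had 40.25 CPM and the next one below it 40.21. At the other border the lowest library between the groups had 19.04 CPM and the highest low Calcr library 18.93. Drd1, which set the filter, ran from 285 to 441 CPM in the high Calcr libraries and from 154 to 389 CPM in the low Calcr libraries.

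**Figure D1:**
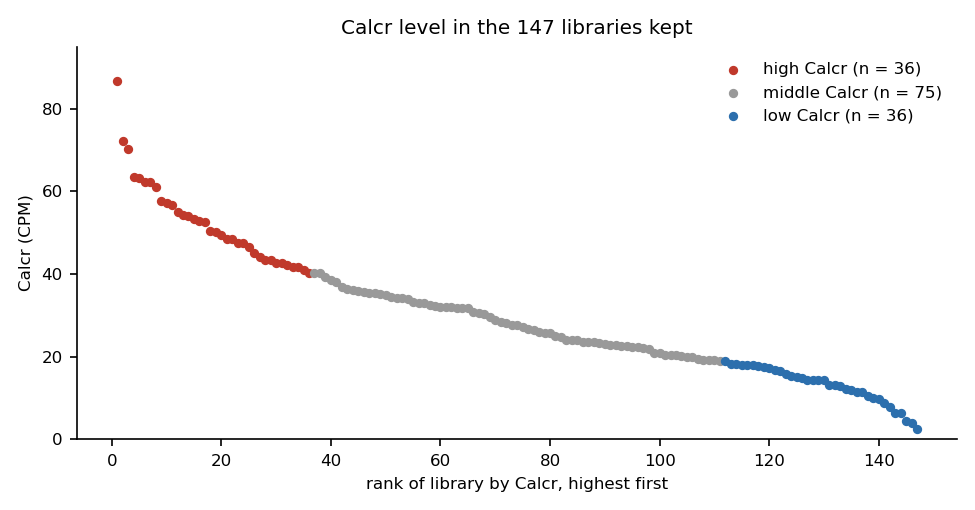
Calcr level (CPM, vertical axis) of the 147 libraries kept, ranked from the highest (horizontal axis), with the 36 high Calcr libraries in red, the 75 between in grey and the 36 low Calcr libraries in blue. The level falls without a break, and the borders lie at about 40.2 and 19.0 CPM.

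The description of high Calcr libraries as medial or shell-side was checked against Cartpt, the precursor of the CART peptide and a known shell marker. Cartpt ran from 86.4 to 257 CPM with a median of 131 in high Calcr libraries, and from 72.5 to 265 CPM with a median of 130 in low Calcr libraries. The groups overlapped almost wholly, and 19 of 36 high Calcr libraries lay above the median of the low ones. The log2 change was 0.027 (SE 0.090, limma adjusted p = 0.841), so a difference in Cartpt was not detected. Nts, the neurotensin precursor, had medians of 28.2 CPM in high and 27.3 CPM in low Calcr libraries (log2 change 0.058, SE 0.097, limma adjusted p = 0.679). Drd3, the D3 dopamine receptor, had medians of 2.39 and 2.05 CPM in high and low Calcr libraries (log2 change 0.094, SE 0.12, limma adjusted p = 0.591). Calb1, the calbindin gene known as a marker of the core, was higher in high Calcr libraries, with a median of 285 CPM against 206 CPM in low Calcr libraries (log2 change 0.52, SE 0.071, limma adjusted p = 1.14e-08), and stood at 0.074 with the mean level of cortical genes as a covariate (limma adjusted p = 0.688). Another core marker, Cnr1, was lower. Of the 15 genes of the shell and medial list, Cartpt and Dlk1 included, 10 were higher and 0 lower. Over all genes tested 18.4% were higher and 17.1% lower. Dlk1, Peg10 and Wfs1 of that list are also among the largest rises, so its count is not independent of them. The markers were thus mixed, and the libraries are called here by their Calcr level alone.

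Calcr left out, 15326 genes averaged 1 CPM or more, and of these 5435 passed limma's test at an adjusted p of 0.05, which is 35.5%. High Calcr libraries were higher for 2813 of them (18.4% of the genes tested) and lower for 2622 (17.1%). Changes of 0.5 or more on the log2 scale, in either direction, were found for 380 (2.48%), of which 62 were higher (0.405%) and 318 lower (2.07%). The larger changes were thus mostly falls. As in any bulk tissue, fewer cells of a type and less RNA per cell cannot be told apart in these values.

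The rises and falls named here as largest are those among genes averaging 5 CPM or more with a symbol that is neither a locus number nor a pseudogene. The largest of these rises was that of Arhgap36, whose protein is known to inhibit protein kinase A. Arhgap36 ran from 20.4 to 57.9 CPM with a median of 31.4 in high Calcr libraries, and from 2.88 to 22.1 CPM with a median of 12.8 in low Calcr libraries. The groups barely overlapped, and 35 of 36 high Calcr libraries lay above every low one. The log2 change was 1.47 (SE 0.12, limma adjusted p = 1.41e-16). Dlk1, a membrane protein related to Notch ligands, ran from 26.0 to 81.8 CPM with a median of 43.5 in high Calcr libraries, against 8.36 to 34.3 CPM with a median of 18.9 in low Calcr libraries. Its log2 change was 1.23 (SE 0.10, limma adjusted p = 3.97e-16), and 30 of 36 high Calcr libraries lay above every low one. Peg10, a gene derived from a retrotransposon, ran from 160 to 294 CPM with a median of 232 in high Calcr libraries, against 58.7 to 197 CPM with a median of 122 in low Calcr libraries. Its log2 change was 0.91 (SE 0.070, limma adjusted p = 1.44e-17), with 31 of 36 high Calcr libraries above every low one. Each of these 3 genes was above the median of the low Calcr libraries in 36 of 36 high ones.

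Npy2r, the Y2 receptor for neuropeptide Y and peptide YY, ran from 5.99 to 13.5 CPM with a median of 11.2 in high Calcr libraries, and from 2.99 to 7.87 CPM with a median of 6.01 in low Calcr libraries. It rose by 0.78 on the log2 scale (SE 0.058, limma adjusted p = 8.66e-18), and 34 of 36 high Calcr libraries lay above every low one. Fndc9, which encodes a fibronectin type III domain protein, separated the groups as well as Arhgap36, with 35 of 36 high Calcr libraries above every low one. Its median was 9.81 CPM in high and 5.70 CPM in low Calcr libraries (log2 change 0.74, SE 0.055, limma adjusted p = 8.66e-18). Krt77, a type II keratin gene, had medians of 13.7 CPM in high and 7.03 CPM in low Calcr libraries (log2 change 0.85, SE 0.072, limma adjusted p = 5.66e-16). Vwa5al1 had medians of 26.1 CPM in high and 14.0 CPM in low Calcr libraries (log2 change 0.91, SE 0.068, limma adjusted p = 9.82e-18), and its reads could be shared with Vwa5a, the gene it is named after. Krt77 and Vwa5al1 were higher than the median of the low Calcr libraries in 36 of 36 high ones.

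The other 5 of the 12 largest rises had log2 changes between 0.72 and 0.81. Wfs1, which encodes the endoplasmic reticulum protein wolframin, had the highest level of the 12 genes, at 446 to 914 CPM in high and 166 to 567 CPM in low Calcr libraries. Cbln4, a secreted synapse organiser of the cerebellin family, had medians of 15.9 CPM in high and 9.21 CPM in low Calcr libraries. Camk1g, a calcium and calmodulin-dependent kinase, had 46.4 and 25.3 CPM in high and low Calcr libraries. Klf5, a zinc finger transcription factor, had 47.5 and 29.8 CPM in the same order, and Baiap3, which acts in the trafficking of dense-core vesicles, 25.7 and 15.2. Klf5 overlapped most of the 5, with 3 of 36 high Calcr libraries above every low one, against 19 to 26 for the others.

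**Figure D2:**
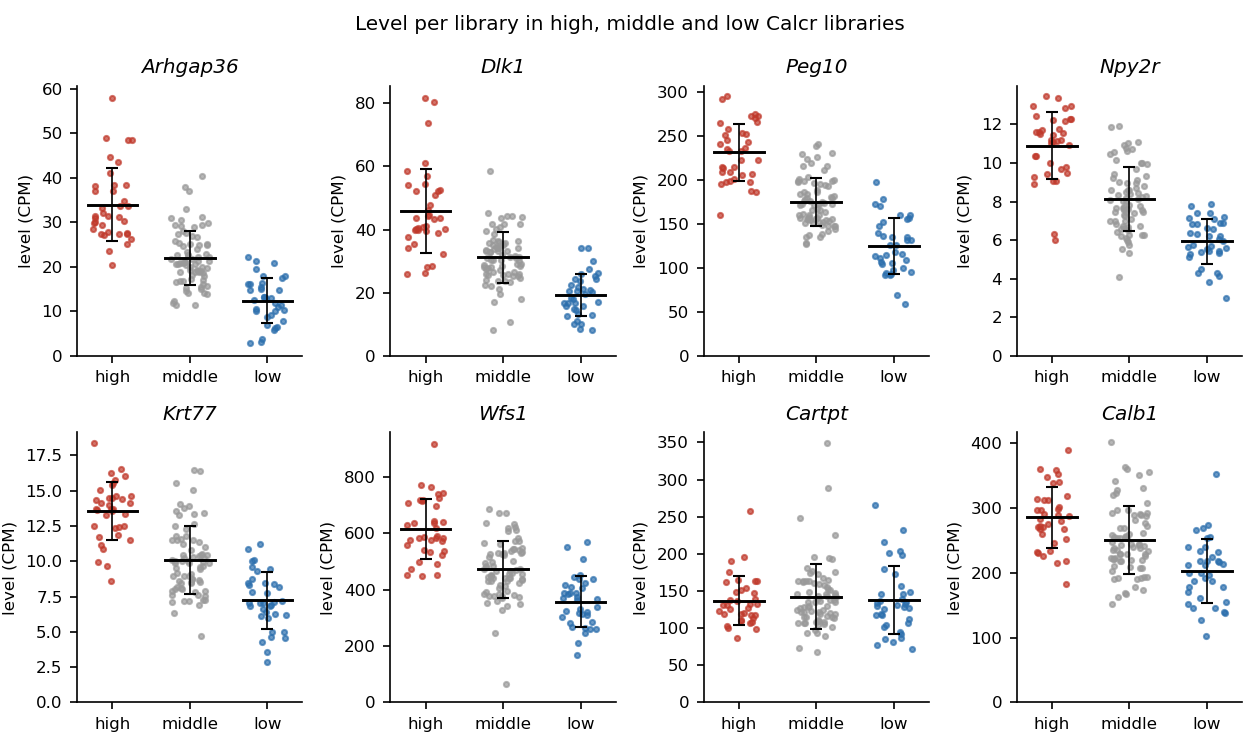
Level per library (CPM, vertical axis) in high, middle and low Calcr libraries (n = 36, 75 and 36) for 6 of the largest rises and for Cartpt and Calb1, with points for libraries, a bar for the mean and whiskers for the SD. The 6 rises step down from high through middle to low Calcr libraries, with Arhgap36 medians of 31.4, 21.0 and 12.8 CPM, while the Cartpt medians are 131, 136 and 130 CPM.

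The 75 libraries between the groups took no part in that comparison, and the same genes were tested in them against log2 Calcr as a continuous term. Calcr spanned 19.04 to 40.21 CPM there, and 47 genes passed limma's test (0.307%), 38 of them rising with Calcr (0.248%). Of the 12 largest rises all 12 had slopes above 0 and 5 passed, namely Arhgap36, Vwa5al1, Cbln4, Camk1g and Baiap3. Arhgap36 gained 0.81 on the log2 scale per log2 unit of Calcr (SE 0.11, limma adjusted p = 8.11e-07) and Vwa5al1 0.59 (SE 0.095, limma adjusted p = 0.000114). Dlk1 at 0.40 (SE 0.145, limma adjusted p = 0.181) and Peg10 at 0.23 (SE 0.077, limma adjusted p = 0.144) did not pass in these libraries. Of the 12 largest falls 0 passed, though all 12 slopes were below 0, between -1.49 and -0.89. Over all 147 libraries kept, their slopes lay between -1.52 and -1.04. The SE in the middle libraries was large for these genes, as for Slc17a7 with a slope of -1.49 (SE 0.59).

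Those falls were led by genes known from cortical glutamatergic neurons. Slc17a7, which fills synaptic vesicles of cortical neurons with glutamate, ran from 2.73 to 238 CPM with a median of 38.0 in high Calcr libraries, and from 9.46 to 1148 CPM with a median of 424 in low Calcr libraries. Every high Calcr library lay below the median of the low ones, and the log2 change was -3.23 (SE 0.32, limma adjusted p = 3.8e-13). The transcription factor genes Tbr1, Neurod2 and Neurod6 changed by -2.65, -2.43 and -2.35. Slc30a3, which loads zinc into synaptic vesicles, changed by -2.58, and Cck, the cholecystokinin precursor, by -2.56 with medians of 17.2 CPM in high and 128 CPM in low Calcr libraries. Ccn3 (-2.45), Rtn4rl2 (-2.33), Smim43 (-2.22), Cplx3 (-2.22), Nr4a2 (-2.13) and Prss12 (-2.12) complete the 12. All 8 genes of the cortical list fell, where 17.1% of all genes tested were lower. Over all genes tested the median log2 change was 0.0015, and over these 8 genes it was -2.20. Their summed level ran from 40.9 to 358 CPM in high Calcr libraries and from 48.4 to 1486 CPM in low Calcr libraries. Slc17a7 was under 100 CPM in 29 of 36 high Calcr libraries and in 3 of 36 low ones.

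**Figure D3:**
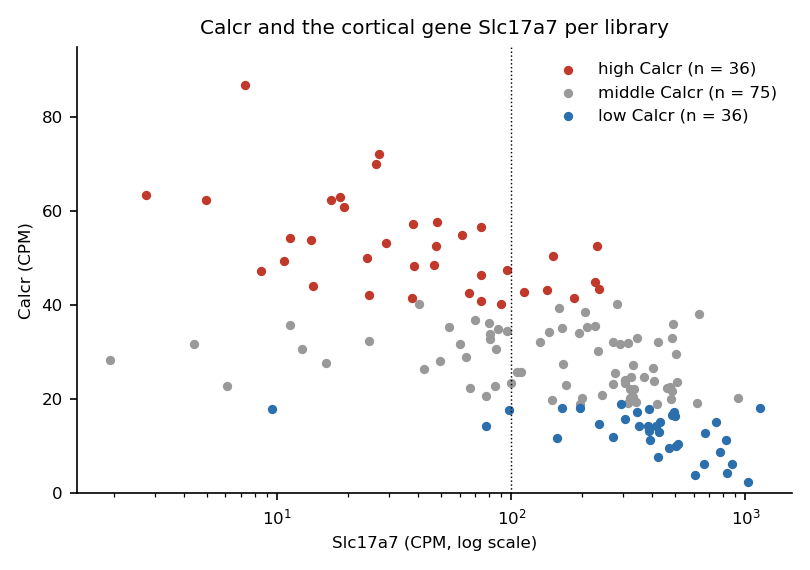
Calcr level (CPM, vertical axis) against that of the cortical gene Slc17a7 (CPM, log scale, horizontal axis) in 147 libraries, coloured by Calcr group, with a dotted line at 100 CPM. Left of the line lie 29 of the 36 high Calcr and 3 of the 36 low Calcr libraries.

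Since cortical genes moved with the groups, the comparison was repeated with a cortical score, the mean standardised level of the 8 cortical genes, as a covariate. The score averaged -0.81 ± 0.62 (SD, n = 36) in high and 0.71 ± 0.74 (SD, n = 36) in low Calcr libraries, running from -1.63 to 0.69 in high and from -1.37 to 2.35 in low Calcr libraries, so the groups overlapped in the score but differed in its mean. With it, 633 genes passed (4.13%), 396 higher (2.58%) and 237 lower (1.55%). All 12 largest rises passed with the covariate, with log2 changes between 0.28 for Klf5 and 0.87 for Arhgap36. Vwa5al1 kept most of its change, at 0.86 (SE 0.10, limma adjusted p = 2.26e-08), and Npy2r was at 0.60 (SE 0.083, limma adjusted p = 1.63e-06). Dlk1 was at 0.67 (SE 0.13, limma adjusted p = 0.000532), Peg10 at 0.63 (SE 0.096, limma adjusted p = 1.19e-05) and Wfs1 at 0.43 (SE 0.094, limma adjusted p = 0.00348). Of the 12 largest falls, 4 (Slc17a7, Tbr1, Neurod2 and Neurod6) are genes of the score, so that the loss of their calls is built into the fit. Of the other 8, Cck at -0.50 and Smim43 at -0.45 passed, with limma adjusted p-values of 0.033 and 0.0446, and the calls of 6 ended. Of these, Nr4a2 was at -0.49 (SE 0.18, limma adjusted p = 0.103) and Ccn3 turned to 0.31 (SE 0.20, limma adjusted p = 0.425). In the 32 libraries with Slc17a7 under 100 CPM, 29 high and 3 low Calcr libraries, 6 genes passed (0.0391%), among them Arhgap36 (log2 change 1.02, limma adjusted p = 0.0123), Vwa5al1 (0.96, limma adjusted p = 0.0123) and Krt77 (0.71, limma adjusted p = 0.0407). All 12 largest rises were above 0 there, between 0.26 and 1.02, and 9 of them did not pass. The rises were chosen by their change over the 72 libraries compared, which include these 32. Their signs here, and their calls with covariates in the same 72 libraries, are therefore partly built into the choice. In the 75 middle libraries the score left 9 genes (0.0587%), with Arhgap36 (slope 0.74, limma adjusted p = 1.93e-05), Vwa5al1 (0.59, limma adjusted p = 0.00059) and Cbln4 (0.43, limma adjusted p = 0.0393) among them.

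**Figure D4:**
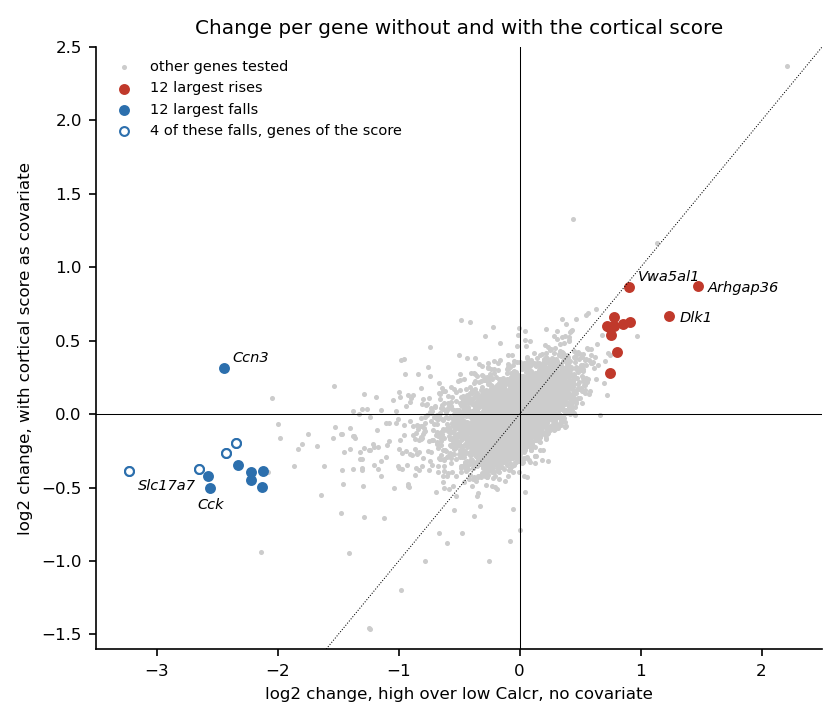
Log2 change of high over low Calcr libraries for each of 15326 genes without a covariate (horizontal axis) and with the cortical score as covariate (vertical axis), the 12 largest rises in red and the 12 largest falls in blue (open for the 4 that are genes of the score), with a dotted line of equal values. The rises stay between 0.28 and 0.87 on the vertical axis, while the falls, from -3.23 to -2.12 on the horizontal axis, lie between -0.50 and 0.31.

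Genes of striatal neurons were mostly higher in high Calcr libraries. All 6 tested genes of D2 medium spiny neurons rose, with a median log2 change of 0.33, and 11 of 12 genes shared by medium spiny neurons rose and 0 fell, with a median of 0.23, where 18.4% of all genes were higher and 17.1% lower. Adora2a, the adenosine receptor gene of D2 neurons, had medians of 367.8 CPM in high and 299.7 CPM in low Calcr libraries (log2 change 0.31, SE 0.058, limma adjusted p = 1.02e-05). Penk, the enkephalin precursor, had 1370 and 1160 CPM in high and low Calcr libraries (log2 change 0.34, SE 0.067, limma adjusted p = 2.59e-05). Gpr52, an orphan receptor of D2 neurons, rose by 0.39, and Meis2, a homeobox gene of the shared list, by 0.30. Of the 6 D1 genes 3 rose and 1 fell, with Isl1 at 0.46, Pdyn, the dynorphin precursor, at 0.34 and Eya1 at -0.38. With the cortical score, 0 of these D1 and D2 genes passed in either direction and 1 of the 12 shared genes fell, where 2.58% of all genes were higher and 1.55% lower. Adora2a then stood at -0.091 (limma adjusted p = 0.437), Penk at -0.042 (limma adjusted p = 0.836) and Pdyn at -0.027 (limma adjusted p = 0.903).

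The shell and medial list holds Dlk1, Peg10 and Wfs1, so its count is not independent of the largest rises. Of its 15 genes 10 rose and 0 fell, with a median log2 change of 0.28, and 6 rose with the cortical score, beside 18.4% of all genes higher without and 2.58% with it. Beside those 3, the 6 were Calb2, the calretinin gene, at 0.47 (SE 0.11, limma adjusted p = 0.00609), Zdbf2 at 0.38 (limma adjusted p = 0.0267) and Nnat at 0.37 (limma adjusted p = 0.0453). Without the score Calb2 had medians of 17.7 CPM in high and 15.1 CPM in low Calcr libraries, Zdbf2 70.2 and 47.7, and Nnat 448 and 353. Of the 6 core and dorsolateral genes 3 rose and 1 fell, where 17.1% of all genes fell. Calb1 and Coch (0.38) were among the rises, and Cnr1, the CB1 cannabinoid receptor, was the fall at -0.50. With the cortical score 0 of the 6 passed, and Calb1 stood at 0.074 (limma adjusted p = 0.688) and Cnr1 at 0.079 (limma adjusted p = 0.687).

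All 7 cholinergic neuron genes rose, with a median log2 change of 0.38, where 18.4% of all genes were higher and 17.1% lower. Lhx8, a LIM homeobox gene of cholinergic neurons, had medians of 11.0 CPM in high and 7.70 CPM in low Calcr libraries (log2 change 0.61, SE 0.083, limma adjusted p = 7.19e-09). Slc10a4, a transporter-like protein of synaptic vesicles, rose by 0.45. None of the 7 passed with the cortical score, where their median was 0.19 and Lhx8 stood at 0.31 (SE 0.12, limma adjusted p = 0.117). Among preoptic, hypothalamic and bed nucleus genes 3 of 7 rose and 2 fell, against the same shares. Nkx2-1, a homeobox gene of the ventral forebrain, had medians of 5.05 CPM in high and 3.03 CPM in low Calcr libraries (log2 change 0.64, SE 0.078, limma adjusted p = 2.79e-10). Esr1, the estrogen receptor alpha gene, had 3.06 and 2.04 CPM in high and low Calcr libraries (log2 change 0.42, SE 0.055, limma adjusted p = 3.77e-09), and Trh, the thyrotropin-releasing hormone precursor, rose by 0.43. Esr1 alone of the 7 passed with the cortical score, at 0.36 (SE 0.083, limma adjusted p = 0.00522). Of the 8 GABA interneuron genes 2 rose and 3 fell, and Pvalb, the parvalbumin gene, fell by 0.85 with medians of 9.78 CPM in high and 19.1 CPM in low Calcr libraries. With the cortical score 0 of the 8 passed, and Pvalb stood at -0.27 (limma adjusted p = 0.217).

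Receptors of feeding peptides were of interest beside Calcr because amylin acts on feeding. Of 9 tested genes, 2 rose and 3 fell, with a median log2 change of 0.024, where 18.4% of all genes were higher and 17.1% lower. The rises were Npy2r and Mc4r, the melanocortin 4 receptor, with medians of 9.68 CPM in high and 6.68 CPM in low Calcr libraries (log2 change 0.62, SE 0.087, limma adjusted p = 1.83e-08). Lepr, the leptin receptor, fell, with medians of 1.53 and 2.10 CPM in high and low Calcr libraries (log2 change -0.36, SE 0.088, limma adjusted p = 0.000858). Once the score was in the fit 4 of the 9 rose and 0 fell (2.58% and 1.55% of all genes), and the median was 0.35, where that of all genes with the score was 0.0051. Npy2r and Npy1r, the Y1 receptor, were among the 4, the second at 0.38 (SE 0.086, limma adjusted p = 0.00464) after 0.058 without the score (limma adjusted p = 0.522). In the middle libraries neither passed, with slopes of 0.33 for Npy2r and -0.083 for Npy1r (limma adjusted p = 0.0878 and 0.75). With the score the slope of Npy1r there was -0.026 (limma adjusted p = 0.961), so no rise with Calcr was seen. The call of Mc4r ended with the score, at 0.39 (SE 0.13, limma adjusted p = 0.0636). Of 20 axon guidance genes 7 rose and 3 fell, and 4 rose with the score, to be read against the same shares of all genes. The ephrin genes Efna5 and Efnb3 were among both sets, at 0.34 and 0.32 without the score and 0.42 and 0.19 with it, whereas Epha4, at 0.40 without it, stood at 0.18 with it (limma adjusted p = 0.273). Of 19 transcription factors of striatal patterning 12 rose and 3 fell, with Nr2f1 and Nr2f2 both at -0.65, and 0 passed with the score.

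**Figure D5:**
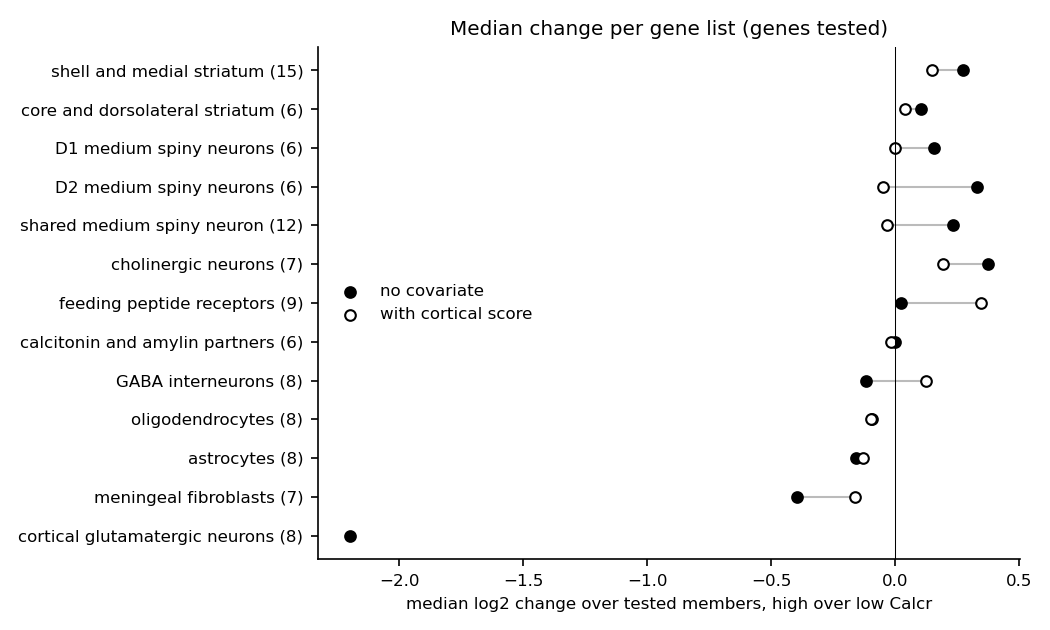
Median log2 change of high over low Calcr libraries (horizontal axis) over the tested genes of 13 lists, with the number tested in brackets, without a covariate (filled) and with the cortical score (open). The cortical median lies at -2.20 and is shown without the score alone, since those genes make the score, and that of the feeding peptide receptors at 0.024 without and 0.35 with it.

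Of 10 receptor partners and ligands 6 were tested, of which 1 rose and 1 fell, a share near the 18.4% higher and 17.1% lower of all genes. The ligand genes Iapp, Calca, Calcb and Adm2 averaged under 1 CPM. Ramp1, which turns the calcitonin receptor into an amylin receptor, had medians of 121 CPM in high and 104 CPM in low Calcr libraries (log2 change 0.24, SE 0.074, limma adjusted p = 0.00712). Ramp3 had 4.41 and 5.10 CPM in high and low Calcr libraries (log2 change -0.23, SE 0.077, limma adjusted p = 0.0127). Calcrl, the related receptor for CGRP and adrenomedullin, had 16.5 and 14.7 CPM (log2 change 0.15, SE 0.068, limma adjusted p = 0.069). Once the cortical score was in the fit, Ramp1 stood at -0.089 (limma adjusted p = 0.688) and Ramp3 at 0.015 (limma adjusted p = 0.962), and 0 of the 6 tested genes passed. The deposited table holds 20 other genes that start within 1000000 bases of Calcr, and 11 were tested. Of these 3 were higher and 3 lower in high Calcr libraries, and with the cortical score 2 were higher and 0 lower, where 2.58% and 1.55% of all genes were. The 2 were Vps50, a vesicle trafficking subunit, with medians of 83.8 CPM in high and 72.6 CPM in low Calcr libraries (log2 change 0.21, SE 0.033, limma adjusted p = 3.7e-07), and Casd1, a sialic acid acetyltransferase gene, with 101 and 80.6 CPM (0.31, SE 0.036, limma adjusted p = 1.53e-10). With the score they stood at 0.19 (limma adjusted p = 0.0182) and 0.20 (limma adjusted p = 0.0151). Bet1 was higher without the score alone (0.23), and the lower genes were Samd9l1 (-0.25), a Samd9l pseudogene and the collagen gene Col1a2 (-0.51). Samd9l copies resemble each other closely, so reads could be split among them and their levels are uncertain. Peg10 starts 1.12 Mb from Calcr on the same chromosome, outside that window.

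Genes of glia, vessels and meninges were, where they passed, lower in high Calcr libraries. The counts of lower genes were 3 of 8 for oligodendrocytes, 4 of 8 for astrocytes, 3 of 11 for microglia, 3 of 5 for endothelium, 4 of 7 for mural cells and 7 of 7 for meningeal fibroblasts, and 0 were higher in any of these lists. Over all genes 17.1% were lower, and the microglial share was nearest to that. Mobp, a myelin gene, had medians of 2011 CPM in high and 2493 CPM in low Calcr libraries (log2 change -0.31, SE 0.082, limma adjusted p = 0.00194), and Gfap, the astrocyte filament gene, 152 and 204 CPM (-0.55, SE 0.10, limma adjusted p = 6.46e-06). Mobp, at -0.40 with the cortical score, and Gfap, at -0.49, were then the only genes of their lists to pass (limma adjusted p = 0.0435 and 0.0471). The calls of the other oligodendrocyte and astrocyte genes ended, and 0 microglial, 1 endothelial and 0 mural genes passed. The summed meningeal list ran from 23.0 to 75.7 CPM in high and from 25.6 to 178 CPM in low Calcr libraries, and none of its genes passed with the score. The part of these cells in the rises was not tested beyond a fit with cortical, oligodendrocyte and astrocyte scores together, in which 11 of the 12 largest rises passed.

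The identifier format and the Calcr level were not independent, since Calcr had a median of 30.7 CPM in 76 E21 libraries and 24.0 CPM in 56 numeric ones. Within E21 libraries (23 high and 11 low Calcr) 2585 genes passed (16.9%, of which 9.64% higher and 7.23% lower), and within numeric libraries (11 high and 20 low Calcr) 2446 (16.0%, of which 9.08% higher and 6.88% lower). All 12 largest rises and all 12 largest falls passed with the same direction in both. These genes were chosen by their change over all libraries compared, which include the E21 and numeric ones. Their passing within each format is therefore partly built into the choice and is no independent check. Arhgap36 changed by 1.27 in E21 and 1.49 in numeric libraries, Dlk1 by 1.31 and 1.08, and Npy2r by 0.81 and 0.74. The change of Slc17a7 was -3.35 in E21 and -2.32 in numeric libraries. No gene passed limma's interaction test of format and Calcr group, with 0 of 15326 at an adjusted p of 0.05 and 301 at an unadjusted p under 0.05. The 301 are fewer than that threshold gives on average where no gene differs. With groups of this size, differences between formats could have been missed. For all 12 largest falls the estimate was below 0, between -1.03 and -0.47, that is a larger fall in E21 libraries. For the 12 largest rises it lay between -0.22 and 0.23. Xist, the RNA of the inactive X chromosome, was above 10 CPM in 22 of 36 high and 14 of 36 low Calcr libraries, and all 12 rises passed with log2 Xist as a covariate too. Total expected counts were 17.0 to 34.8 M (M standing for 1000000) in high and 16.8 to 58.5 M in low Calcr libraries, so that 1 CPM was at least 16.8 expected counts.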

How the data were processed

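RNA of the accumbens core was quantified by the authors with kallisto 0.48, per the submitters' processing notes. Annotation, build and library strand were not given in the sources used here. Each deposited value is the log2 of 1 plus an expected count, without scaling to library size, as read from the values. All 38278 gene symbols shared with RefSeq's GRCr8 table start at a gene end of that table, so positions are given on GRCr8. The 33 libraries of the labels without a column are not analysed here. Expected counts were recovered by reversing the log2 step, scaled to 1000000 per library (CPM) and tested as log2(CPM + 1), which understates the change of low genes. Levels are not scaled by length.

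High and low Calcr libraries were compared in R 4.3.3 using the moderated test of limma 3.58.1 with an intensity trend, two-sided, with Benjamini-Hochberg adjustment over all 15326 genes, at an adjusted p of 0.05. The fit was tested on simulated data. Standard errors and p-values measure the spread between libraries, taken as 1 rat each. Identifier numbers name libraries and pair none. The library groups, gene lists and members were chosen with earlier results of these data known.

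The rule for named genes takes Cartpt, the 12 largest rises and 12 largest falls among called genes averaging 5 CPM or more and a symbol that is neither a locus number nor a pseudogene, the 3 genes of each list with the smallest p, and the tested genes within 1000000 bases of Calcr. Not all of these are named. Npy1r, Nts, Calb2, Zdbf2 and Nnat were named after their values were seen, as were the genes under other observations. Alternatives changed the pseudocount, scaling, filter on low values, split, libraries and covariates. The fits in the 75 middle libraries, over all libraries with the cortical score, and with cortical score, Xist and format together were added after the data were examined. Python 3.11.15, numpy 2.4.6, pandas 2.3.3 and matplotlib 3.10.9 were used.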

Additional observations from a re-analysis of the deposited data

How the results depend on the processing

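The count of 5435 genes stayed within 1.5 times, between 4073 and 7289, under other pseudocounts, scalings, filters and splits, without the Drd1 filter (where 10 of the 12 largest rises passed) and with format, Xist or depth as a covariate. It was 633 with the cortical score, 259 with cortical, oligodendrocyte and astrocyte scores, 897 with cortical score, Xist and format, 1738 over all 147 libraries with log2 Calcr continuous and the cortical score, and 6 with Slc17a7 under 100 CPM, where 3 low Calcr libraries were left. The 380 genes at a log2 change of at least 0.5 became 189 at a mean of at least 10 CPM (fewer genes tested), 241 for 49 against 49 libraries, 148 for 73 against 73 and 947 without the Drd1 filter, and 35 with the cortical score, 23 with 3 scores, 42 with cortical score, Xist and format, and 6 with Slc17a7 under 100 CPM. In the 75 middle libraries 47 genes passed, and 9 with the cortical score. Over all genes, 535 passed both without and with the cortical score, and 519 of them kept their direction. Among those that did not, Trpc4 went from -0.44 (limma adjusted p = 0.000715) to 0.38 (limma adjusted p = 0.0157). Of the called genes whose changes are given above, directions turned for the following. With the cortical score, Ccn3 was at 0.31, Ramp1 at -0.089, Ramp3 at 0.015, Cnr1 at 0.079, Pdyn at -0.027, Adora2a at -0.091 and Penk at -0.042. With 3 scores, Ccn3 was at 0.35, Ramp1 at -0.063, Ramp3 at 0.032, Cnr1 at 0.0055, Coch at -0.045, Pdyn at -0.12, Eya1 at 0.056, Adora2a at -0.12, Penk at -0.10 and Samd9l1 at 0.00089. With cortical score, Xist and format, Ccn3 was at 0.44, Ramp1 at -0.11, Ramp3 at 0.019, Cnr1 at 0.11, Pdyn at -0.0025, Adora2a at -0.092 and Penk at -0.032. With Slc17a7 under 100 CPM, Ccn3 was at 0.012, Ramp1 at -0.039, Pdyn at -0.22, Adora2a at -0.10, Meis2 at -0.029, Penk at -0.13, Nr2f1 at 0.15 and Epha4 at -0.0042. Over all libraries with Calcr continuous and the cortical score, Slc17a7, itself in the score, was at 0.0064, Ccn3 at 0.083 and Ramp3 at 0.020. Without the Drd1 filter Calb2 was at -0.53. The cause of these turns was not tested. No paired analysis was possible because the library numbers follow accession order and tie no high Calcr library to a low one.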

Other observations

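Many imprinted genes stood among the rises, in a list drawn up after the values were seen and therefore given without a test. Of 34 tested genes known as imprinted from mouse, Dlk1 and Peg10 included, 20 passed limma's threshold upward and 6 downward, with a median log2 change of 0.18, and 11 passed upward and 0 downward with the cortical score. Over all genes 18.4% were higher and 17.1% lower, and 2.58% and 1.55% with the score. Dio3, the thyroid hormone-inactivating deiodinase and a neighbour of Dlk1 on chromosome 6, ran from 2.37 to 8.65 CPM with a median of 4.70 in high Calcr libraries, and from 0.597 to 5.02 CPM with a median of 1.57 in low Calcr libraries. Its log2 change was 1.08 (SE 0.091, limma adjusted p = 6.56e-16), higher than the median of the low Calcr libraries in 36 of 36 high ones, and 0.93 with the cortical score (SE 0.14, limma adjusted p = 5.27e-06). It was also called in the 75 middle libraries, with a slope of 0.77 per log2 unit of Calcr (SE 0.11, limma adjusted p = 1.86e-06). Dio2, the deiodinase that activates thyroid hormone, was lower, with medians of 22.7 CPM in high and 34.7 CPM in low Calcr libraries (log2 change -0.69, SE 0.073, limma adjusted p = 3.99e-12) and -0.53 with the score (limma adjusted p = 0.00125). In the 75 middle libraries its slope was -0.033 (SE 0.11, limma adjusted p = 0.93) and 0.090 with the score (limma adjusted p = 0.833), so no fall with Calcr was seen there. Rtl1, between Dlk1 and Dio3 on chromosome 6, rose by 0.57 (limma adjusted p = 5.69e-09) and stood at 0.24 with the score (limma adjusted p = 0.179). Of the imprinted genes elsewhere, Magel2 rose by 0.40, Grb10 by 0.39 and Impact by 0.29, and each passed with the score, at 0.38, 0.22 and 0.25 (limma adjusted p = 0.0137, 0.019 and 0.00241). In the 75 middle libraries none of these genes passed, with slopes of 0.26, 0.17 and 0.19 (limma adjusted p = 0.2475, 0.166 and 0.1445). With cortical, oligodendrocyte and astrocyte scores together Impact passed, while Magel2 and Grb10 did not (limma adjusted p = 0.0081, 0.0652 and 0.0967).

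Chodl and Insyn2b, at low levels, held their change with the cortical score. Chodl, which encodes the membrane protein chondrolectin, had medians of 4.67 CPM in high and 2.66 CPM in low Calcr libraries, with 29 of 36 high Calcr libraries above every low one. Its log2 change was 0.63 (SE 0.055, limma adjusted p = 2.54e-15), and 0.72 with the score (SE 0.082, limma adjusted p = 6.17e-09). Insyn2b, named for a protein of inhibitory synapses, had medians of 6.78 CPM in high and 4.97 CPM in low Calcr libraries (log2 change 0.47, limma adjusted p = 6.34e-07, and 0.65 with the score, limma adjusted p = 9.49e-05). Both passed in the libraries with Slc17a7 under 100 CPM, at 0.67 and 0.92 (limma adjusted p = 0.017 each). Against log2 Calcr in the middle libraries neither passed, with slopes of 0.36 each (limma adjusted p = 0.0593 and 0.141). With the score Chodl was at 0.38 and did not pass there, while Insyn2b at 0.52 did (limma adjusted p = 0.143 and 0.0187). Among the falls, Stac2 and Cabp1, a calcium-binding protein gene, changed by -1.30 and -0.92. Their changes were smaller with the score but still passed, at -0.49 each (limma adjusted p = 0.00122 and 4.72e-05). Neither passed in the libraries with Slc17a7 under 100 CPM, at -0.34 and -0.39 (limma adjusted p = 0.9993 and 0.513). In the middle libraries neither passed, with slopes of -0.52 and -0.36 (limma adjusted p = 0.18 and 0.209). With the score those slopes were -0.056 and -0.046 (limma adjusted p = 0.899 and 0.911).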
